A study of Mus musculus with 6 samples.

Results

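The data compare the heart under pressure overload with the sham-operated heart, over both genotypes of the study. All 6 of the 6 arrays entered: the 4 whose titles name TAC surgery against the 2 whose titles name sham surgery, with genotype as a covariate. TAC is a constriction of the aorta that makes the left ventricle pump against a higher pressure. The wild-type groups held 1 sham and 2 TAC arrays, and the JMJD2A-tg groups, whose mice carry a heart-specific transgene of the histone demethylase JMJD2A, also held 1 sham and 2 TAC arrays. All mice had the FvB background, the labels put their age at 8 weeks where the series' own design text speaks of years, and hearts were taken 3 weeks after surgery. Which promoter drives the transgene, how many lines carried it, which chambers were sampled and the sex of the mice are not stated in the labels. Nor do they state whether animals were pooled for an array. The p-values thus reflect the spread among these 6 arrays, and some of it may be technical. Of 19053 genes with a probe, 11166 passed a filter on intensity and were tested.

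A heart that works against a raised pressure answers with growth of its muscle cells, which switch on genes of the fetal heart, among them skeletal alpha-actin, beta-myosin heavy chain and the natriuretic peptides. Fibroblasts between the muscle cells lay down collagen and other matrix proteins, and the muscle cells lower their capacity to burn fatty acids. Where these changes persist, the heart can pass from compensated growth into failure.

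Array pairs correlated at r = 0.984 to 0.994 over all probes. The labelled tissue was checked against cardiomyocyte markers: 12 of 13 listed had a probe, all 12 were tested, and they lay between log2 11.24 and 14.46 on every array. Xist, the RNA of the silenced X chromosome in female cells, was low on wild-type TAC 2 (log2 5.38) and on transgenic sham (5.41) and at 10.36 to 11.03 on the other arrays. The tested probe of Kdm4a, the mouse gene of JMJD2A, lay at 6.45 to 6.75 on all 6 arrays; where it lies relative to the transgene is not stated, so it checks no genotype label. Values are log2 intensities throughout. Background was not subtracted, so differences of dim genes, near the array median of 56.3 to 56.4 on the linear scale, are understated.

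A single gene, Acta1, passed the test of TAC against sham (limma, adjusted p under 0.05), which is 0.00896% of the genes tested. No gene passed in the lower direction. At an unadjusted p under 0.05, 531 genes (4.76%) were higher and 502 (4.5%) lower after TAC in limma, 1033 (9.25%) in all. All 4 TAC arrays lay above both sham arrays for 936 genes (8.38%) and below both for 911 (8.16%). These shares are the background for every count of list members given here, and the median log2 difference of all genes tested was -0.01. Positive differences made up 48.5% of the genes and negative ones 51.5%. The count rested on single arrays: no gene passed when either sham array or either wild-type TAC array was left out, Acta1 and Uck2 passed without transgenic TAC 2, and 37 genes (29 higher, 8 lower) passed without transgenic TAC 1, Nppb, Nppa, Timp1 and Col8a1 among them. Over all 6 arrays none of these but Acta1 passed, so other genes are given by their values.

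**Figure D1:**
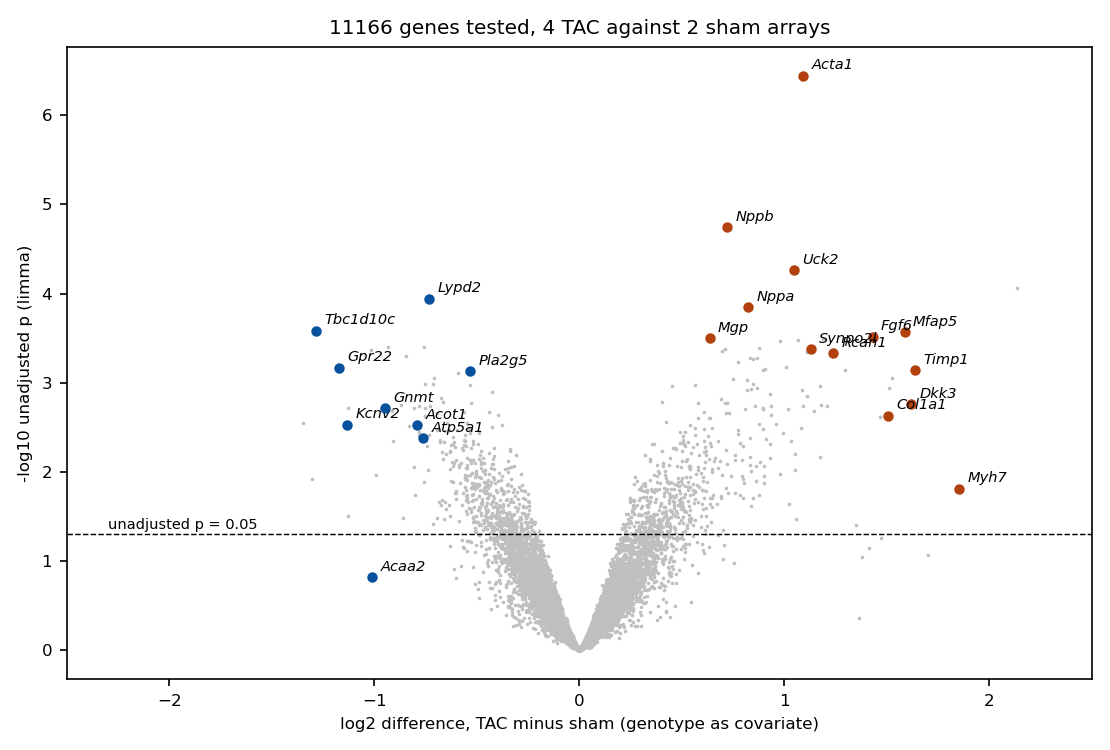
Each grey point is 1 of 11166 tested genes, with the log2 difference of TAC minus sham on the x axis and -log10 of the unadjusted limma p on the y axis; orange (higher) and blue (lower) points are genes named in the text. Acta1 stands highest at an adjusted p of 0.00403, and the named genes to its right have larger differences with larger errors.

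Acta1, the skeletal alpha-actin that the fetal and the overloaded heart use beside cardiac actin, rose after TAC in the test over both genotypes. It stood at 13.28 on wild-type sham and 12.85 on transgenic sham, at 14.38 and 14.33 on the wild-type TAC arrays and at 13.95 and 13.96 on the transgenic TAC arrays. Every TAC array lay above both sham arrays, and each TAC pair agreed within 0.05 on the log2 scale. The difference was log2 1.09 ± 0.08 (SE, 4 TAC against 2 sham arrays), or 2.13-fold, with an adjusted p of 0.00403 in limma, and it was 1.08 ± 0.14 in wild type and 1.11 ± 0.14 in transgenic hearts. Its size moved little when an array was left out, between 1.08 and 1.11, but the limma adjusted p became 0.238 and 0.118 when the wild-type or the transgenic sham array was dropped, and 0.0798 and 0.0869 when wild-type TAC 1 or TAC 2 was dropped. Without either transgenic TAC array the gene still passed, at 0.00439 and 0.00257. In RNA of heart tissue, a change in the share of a cell type and a change in RNA per cell cannot be told apart.

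The natriuretic peptide genes Nppb and Nppa, whose hormones lower blood volume and are released by stretched heart muscle, were higher on all 4 TAC arrays. Nppb stood at 13.68 and 13.80 on the sham arrays of wild type and transgenic mice, at 14.48 and 14.29 on the wild-type TAC arrays and at 14.56 and 14.51 on the transgenic TAC arrays. Its difference was 0.72 ± 0.09 with an adjusted p of 0.101 in limma, nearly equal in wild type (0.71) and transgenic hearts (0.73). Nppa stood at 13.30 and 13.87 on the sham arrays and between 14.33 and 14.47 on the TAC arrays, so transgenic sham lay between wild-type sham and the TAC arrays. Its difference was 0.82 ± 0.13 (limma adjusted p = 0.225), with 1.13 in wild type and 0.52 in transgenic hearts. The TAC levels of Acta1, Nppb and Nppa lay near log2 14.66, the highest intensity of any probe, where differences between arrays may be compressed. Whether these probes were saturated was not tested.

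The 250 bases before the start of Acta1, Nppb, Nppa and Ankrd1, a nuclear and sarcomeric stress protein gene, are shown because their arrays did not overlap and these genes are the classic readouts of overload. They are RefSeq promoters on build GRCm38.p6, read 5′ to 3′ in the direction of the gene, and capitals mark the letters of 4 elements searched on both strands. The elements are the CArG box of serum response factor, the MCAT letters CATTCC of the TEAD factors, the GATA letters AGATAA and the E-box CAGCTG, which reads the same on both strands. No match overlapped another in these windows.
Acta1 (chr8:123894776-123895025, minus strand): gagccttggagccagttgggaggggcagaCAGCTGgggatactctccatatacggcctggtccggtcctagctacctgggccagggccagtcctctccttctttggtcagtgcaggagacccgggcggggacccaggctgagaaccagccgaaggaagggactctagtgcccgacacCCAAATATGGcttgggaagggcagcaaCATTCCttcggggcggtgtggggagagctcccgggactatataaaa
Nppb (chr4:147985650-147985899, plus strand): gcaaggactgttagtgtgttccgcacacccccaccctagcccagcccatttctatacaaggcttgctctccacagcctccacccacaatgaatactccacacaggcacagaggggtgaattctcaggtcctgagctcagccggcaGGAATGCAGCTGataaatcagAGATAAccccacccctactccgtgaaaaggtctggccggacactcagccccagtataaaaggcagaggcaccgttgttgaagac
Nppa (chr4:148000472-148000721, plus strand): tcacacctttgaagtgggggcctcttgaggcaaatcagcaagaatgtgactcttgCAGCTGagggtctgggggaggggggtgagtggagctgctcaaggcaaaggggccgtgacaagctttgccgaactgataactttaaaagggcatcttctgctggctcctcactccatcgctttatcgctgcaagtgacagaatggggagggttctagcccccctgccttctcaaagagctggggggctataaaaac
Ankrd1 (chr19:36119845-36120094, minus strand): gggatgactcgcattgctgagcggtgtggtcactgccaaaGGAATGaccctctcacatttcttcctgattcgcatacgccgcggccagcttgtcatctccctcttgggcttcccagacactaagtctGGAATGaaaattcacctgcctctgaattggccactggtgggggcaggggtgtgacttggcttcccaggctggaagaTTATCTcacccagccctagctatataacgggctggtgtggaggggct

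The Acta1 window held 1 CArG box, at 73 to 64 bases before the start, with CATTCC at 46 to 41 bases and CAGCTG at 221 to 216 bases before it. In the Nppb window CATTCC on the reverse strand (printed as GGAATG) directly preceded CAGCTG, with AGATAA 84 to 79 bases before the start. The Nppa window held CAGCTG and none of the other 3. The Ankrd1 window held CATTCC on the reverse strand at 2 places and AGATAA on the reverse strand (printed as TTATCT). Of the 16 tested fetal and hypertrophic genes, all with a RefSeq promoter, 4 had a CArG box, 6 CATTCC, 3 AGATAA and 5 CAGCTG in 1 or more windows. Over all 27025 genes of the promoter table these shares were 1.62%, 14.4%, 11.4% and 14.7%, and over its 32851 windows 1.47%, 12.6%, 9.99% and 13.0%. A match describes the letters only, and factor binding was not measured.

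The wider list of fetal and hypertrophic genes leaned the same way. Of 18 listed genes 17 had a probe and 16 were tested; 14 had a positive difference, 8 lay above both sham arrays on all 4 TAC arrays (background 8.38%), none lay below, and the median was log2 0.83. By genotype the median was 0.97 in wild type and 0.49 in transgenic hearts, and it was 0.49 without the wild-type sham array, on which these genes were lowest. Acta1 was the 1 member past the test. Nppa, Myl4 and Myl7 are also on the list of atrial markers. Wild-type TAC 1 lay above wild-type TAC 2 in 12 of the 16 genes, against 45.1% of all genes tested. Transgenic TAC 2 lay above transgenic TAC 1 in 12 of them too, against 58.7%.

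Among the sarcomere and Z-disc members, Synpo2l, which binds actinin at the Z-disc, stood at 7.69 and 8.67 on the sham arrays (wild type first), at 9.42 and 8.94 on the wild-type TAC arrays and at 9.36 and 9.53 on the transgenic TAC arrays. All 4 TAC arrays were above both sham arrays, with a difference of 1.13 ± 0.21 (limma adjusted p = 0.225). Xirp2, an actin-binding protein of the intercalated disc named here after its values were seen, stood at 10.73 and 11.59 on the sham arrays and at 11.77 to 12.68 on the TAC arrays. The LIM-domain gene Fhl1 stood at 12.56 and 13.65 on the sham arrays and at 13.71 to 14.15 on the TAC arrays, so that the wild-type difference (1.28) exceeded the transgenic one (0.40). Its relative Fhl2, also named after its values were seen, had the lowest difference of the list, -0.45 ± 0.18, with overlapping arrays.

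Rcan1, an inhibitor of the phosphatase calcineurin that calcineurin signalling itself induces, stood at 11.26 and 11.30 on the sham arrays, at 12.50 and 11.76 on the wild-type TAC arrays and at 12.71 and 13.10 on the transgenic TAC arrays. The sham arrays agreed closely and every TAC array was higher, with a difference of 1.24 ± 0.23 (limma adjusted p = 0.225). A second, dimmer probe gave 1.69 with overlap, since wild-type TAC 2 (6.58) lay below transgenic sham (6.63), and it was highest on transgenic TAC 1 (9.94). The remaining probe, near background, gave 0.08. Ankrd1 stood at 13.74 and 13.96 on the sham arrays and at 14.07 to 14.24 on the TAC arrays, a difference of 0.29 ± 0.10. Its dimmer probe, at a mean of 12.43 against 14.05 for the tested one, gave 1.11, so the bright probe showed the smaller difference.

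The myosin heavy chains differed in their spread. Myh7, the slow beta chain of the fetal ventricle, had the largest difference of the list at 1.85 ± 0.62 (limma adjusted p = 0.42), and its 2 other probes gave 1.36 and 1.41. It stood at 7.31 and 9.59 on the sham arrays (wild type first), at 10.88 and 8.61 on the wild-type TAC arrays and at 11.72 and 10 on the transgenic TAC arrays. Wild-type TAC 2 lay below transgenic sham, so the groups overlapped. Myh6, the fast alpha chain of the adult mouse ventricle, stood at 13.89 to 14.33 on all arrays with a difference of 0.13 ± 0.11, while its second probe gave -0.57.

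Nmrk2, a muscle kinase of nicotinamide riboside in NAD synthesis, stood at 8.89 on wild-type sham and 11.87 on transgenic sham, against 11.63 and 10.95 on the wild-type TAC arrays and 12.42 and 12.39 on the transgenic TAC arrays. Over both genotypes this tested probe gave a difference of 1.47, a dimmer probe 1.03 and the dimmest -0.42. On the tested probe the transgenic sham level lay inside the range of the TAC arrays. The difference was 2.40 ± 0.28 in wild type and 0.54 ± 0.28 in transgenic hearts, and the test of the difference between genotypes gave a limma adjusted p of 1.

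**Figure D2:**
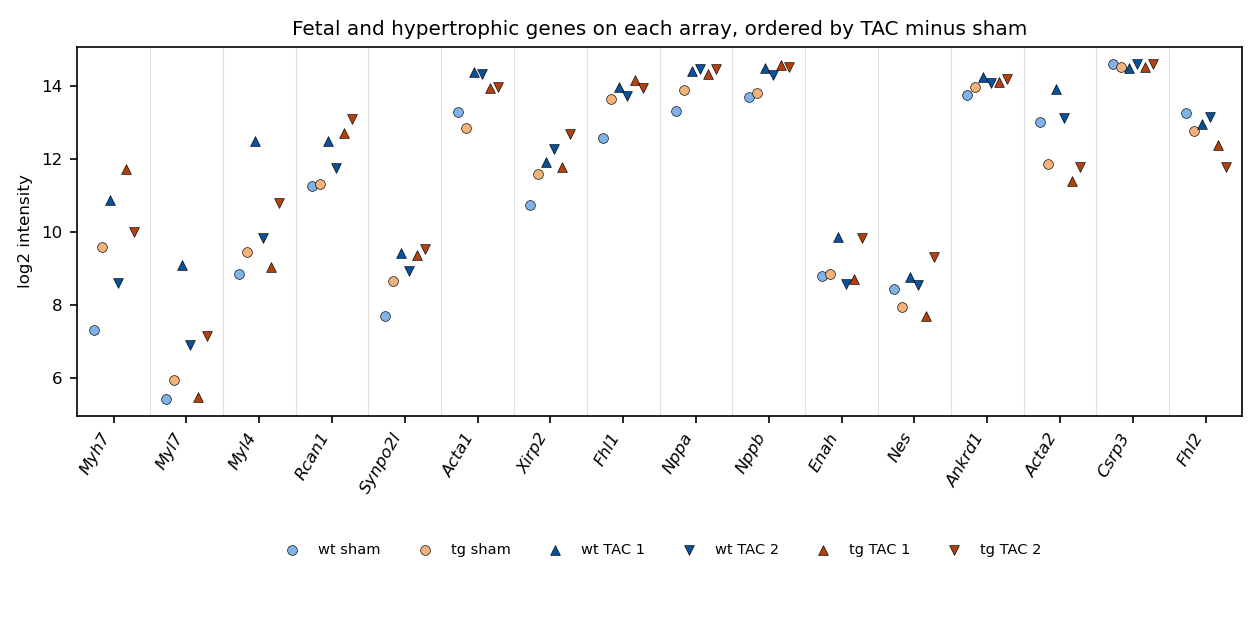
The log2 intensity of the 16 tested fetal and hypertrophic genes is plotted for each array, with circles for sham and triangles for TAC, blue for wild type and orange for transgenic; genes are ordered by their difference. Acta1, Nppb and Nppa show TAC points above both sham circles near the top of the scale, whereas Myh7 and Myl7 are spread over several log2 units.

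Other genes that met the naming rule came from several pathways. Uck2, the uridine-cytidine kinase of pyrimidine salvage, stood at 9.58 and 10.07 on the sham arrays (wild type first), at 10.88 and 10.78 on the wild-type TAC arrays and at 11.01 and 10.81 on the transgenic TAC arrays. All TAC arrays were above both sham arrays and within 0.23 of each other on the log2 scale. The difference was 1.05 ± 0.15, or 2.07-fold (limma adjusted p = 0.203), and its other probes gave 0.96 and 0.82.

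Fgf6, a fibroblast growth factor best known from skeletal muscle, stood at 6.61 and 6.74 on the sham arrays, at 7.79 and 7.25 on the wild-type TAC arrays and at 8.83 and 8.54 on the transgenic TAC arrays. The transgenic TAC arrays were the highest, and the difference was 1.43 ± 0.25 (limma adjusted p = 0.225). A second probe gave 1.14. Lman1l, a lectin-like protein gene, stood at 7.07 and 8.01 on the sham arrays and at 8.41 to 9.28 on the TAC arrays (1.19 ± 0.21), and its other probes gave 1.01 and 0.73. Lrp8, a receptor of the low-density lipoprotein family, was 0.71 ± 0.13 higher by its tested probe, whereas 4 dimmer probes, near background with means of 5.38 to 5.91, gave -0.05 to 0.07.

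The secreted protein genes Itgbl1 (0.98 ± 0.18), Pamr1 (1.14 ± 0.21) and Ecrg4 (1.52 ± 0.32) also met that rule, which required all 4 TAC arrays to lie above both sham arrays. The Dickkopf family gene Dkk3 (1.62 ± 0.37, also an atrial marker) and the Wnt signalling inhibitor gene Nkd2 (1.30 ± 0.26) met it too. So did Ppic, the cyclophilin C gene of a prolyl isomerase in the secretory pathway, at 0.88 ± 0.16. Their limma adjusted p lay between 0.225 and 0.274. On 5 of these 6 genes, all but Itgbl1, wild-type TAC 1 and transgenic TAC 2 were the highest arrays.

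Most collagen chain genes had higher levels after TAC, none of them past the test. Of 22 listed chains 20 had a probe and 19 were tested, 17 of them with a positive difference; 13 lay above both sham arrays on all 4 TAC arrays (background 8.38%), none lay below, and the median was log2 0.81 (0.73 in wild type, 0.91 in transgenic hearts). The fibrillar chain gene Col1a1 stood at 8.11 and 8.30 on the sham arrays (wild type first), at 10.34 and 9.10 on the wild-type TAC arrays and at 9.17 and 10.26 on the transgenic TAC arrays. The sham arrays were close together, and within each genotype 1 TAC array stood over log2 1 above the other (by 1.24 in wild type and 1.09 in transgenic hearts). The difference was 1.51 ± 0.36, or 2.84-fold (limma adjusted p = 0.285). Col3a1, the other main fibrillar collagen of the heart, gave 0.60 ± 0.23 by its tested probe and 0.49 by a dimmer one.

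Col4a1, a chain of basement membranes, stood at 12.32 and 11.87 on the sham arrays and at 12.52 to 13.17 on the TAC arrays (0.81 ± 0.19), and its partner Col4a2 gave 0.87 ± 0.19. The rarer type IV chain Col4a3 gave 0.69 ± 0.13, and the limma adjusted p of these 3 genes lay between 0.225 and 0.274. Col8a1, a short-chain network collagen, stood at 8.58 and 9.52 on the sham arrays, at 10.78 and 10.16 on the wild-type TAC arrays and at 10.06 and 11.24 on the transgenic TAC arrays, for a difference of 1.51 ± 0.32 (limma adjusted p = 0.258). It met the naming rule that required no overlap between TAC and sham, and a dimmer probe gave 1.11.

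Matrix glycoproteins and proteoglycans had mostly positive differences too, none past the test. Of 28 tested members 23 had a positive difference, 16 lay above both sham arrays on all 4 TAC arrays, 1 lay below, and the median was log2 0.58 (0.58 in wild type, 0.55 in transgenic hearts). Mfap5, a protein of elastic microfibrils, stood at 9.55 and 9.24 on the sham arrays, at 11.32 and 10.40 on the wild-type TAC arrays and at 10.77 and 11.43 on the transgenic TAC arrays. The lowest TAC array lay 0.85 above the higher sham array on the log2 scale, and the difference was 1.59 ± 0.28 (limma adjusted p = 0.225).

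Mfap4 (1.50 ± 0.37), the collagen-binding glycoprotein gene Sparc (0.93 ± 0.20) and the small leucine-rich proteoglycans Lum (0.85 ± 0.16) and Bgn (0.82 ± 0.18) also had no overlap. Mfap5 and Mfap4 met the naming rule that required this, so for them the lack of overlap is no result. Mgp, whose matrix Gla protein keeps vessels and cartilage from calcifying, was bright on every array, at 13.51 and 13.80 on the sham arrays and at 14.06 to 14.41 on the TAC arrays (0.64 ± 0.11). The member that lay below was Thbs2, a thrombospondin named after its values were seen, at -0.23 ± 0.15. Periostin, encoded by Postn, could not be followed, since its 3 probes were below the intensity filter, with means of 5.44 to 5.53 and differences of -0.20 to 0.08.

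The enzymes that process and crosslink collagen had positive differences in 14 of 14 tested members, with a median of log2 0.31, and 4 lay above both sham arrays on all 4 TAC arrays. The median was 0.19 without transgenic TAC 2 and 0.20 without transgenic sham. The collagen crosslinking oxidases Lox (0.79 ± 0.21) and Loxl1 (0.86 ± 0.26) and the procollagen proteinase enhancer Pcolce (0.83 ± 0.25) had no overlap. Tgm2, a transglutaminase, gave 0.27 ± 0.11 with overlapping arrays.

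Proteases and their inhibitors were mixed: 13 of 21 tested members had a positive difference, 7 lay above and 1 below both sham arrays on all 4 TAC arrays, and the median was log2 0.19 (0.11 without wild-type TAC 1). Timp1, the inhibitor of matrix metalloproteinases induced in injured heart, stood at 7.43 and 7.81 on the sham arrays, at 10.05 and 8.90 on the wild-type TAC arrays and at 8.73 and 9.33 on the transgenic TAC arrays. The lowest TAC array lay 0.92 above the higher sham array on the log2 scale, and the difference was 1.64 ± 0.33, or 3.11-fold (limma adjusted p = 0.237), with the same 1.64 from a second probe. Timp4, the inhibitor most typical of adult heart and named after its values were seen, went the other way: 7.60 and 6.89 on the sham arrays against 6.56 to 6.75 on the TAC arrays (-0.64 ± 0.16). Serpinf1 (1.06 ± 0.19), the gelatinase gene Mmp2 (0.89 ± 0.21) and the cathepsin gene Ctsk (0.94 ± 0.22) had no overlap, and Mmp14 (1.06 ± 0.42), named after its values were seen, overlapped.

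Growth factor genes of the TGF-beta, CCN and IGF families had positive differences in 26 of 33 tested members, 13 of them above both sham arrays on all 4 TAC arrays and none below, with a median of log2 0.34. Ccn2, connective tissue growth factor, stood at 12.43 and 12.48 on the sham arrays, at 13.81 and 12.84 on the wild-type TAC arrays and at 13.50 and 14.04 on the transgenic TAC arrays. Its sham arrays were 0.05 apart on the log2 scale and all TAC arrays were higher (1.09 ± 0.25, limma adjusted p = 0.274). The follistatin-like gene Fstl1 gave 1.21 ± 0.28, Igf1 0.61 ± 0.17 and the IGF-binding protein gene Igfbp7 0.53 ± 0.16, all without overlap. For Igfbp7 the median over its probes was -0.01, but its other probes were near background, with means of 5.25 to 5.42 against 12.57 for the tested one. That difference rests on the tested probe.

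Within each genotype the 2 TAC arrays were unequal for the matrix, and in the same order for most of its genes. Wild-type TAC 1 lay above wild-type TAC 2 in 18 of 19 collagen chains, 25 of 28 glycoproteins, 14 of 14 processing enzymes and 29 of 33 growth factor genes, against 45.1% of all genes tested. Transgenic TAC 2 lay above transgenic TAC 1 in 16, 25, 13 and 26 of the same members, against 58.7% of all genes. As a median over the collagen chains, each centred on its mean over the arrays, levels were -0.47 and -0.59 on the sham arrays (wild type first), 0.60 and -0.08 on the wild-type TAC arrays and -0.02 and 0.54 on the transgenic TAC arrays. The lower TAC array of each genotype still stood above its sham array. The median difference of the collagens ranged from 0.71 to 1.01 when single arrays were left out, and that of the glycoproteins from 0.42 (without wild-type TAC 1) to 0.68.

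Some atrial genes, but not the whole list, were highest on the same TAC arrays as the matrix genes. Of 12 listed atrial cardiomyocyte markers 12 had a probe and 11 were tested, Bmp10 being below the filter. Of these, 7 had positive and 4 negative differences, 2 lay above and 1 below both sham arrays on all 4 TAC arrays, and the median was log2 0.82. The median was 1.13 in wild type and without the transgenic sham array, and 0.38 in transgenic hearts and without the wild-type sham array. Wild-type TAC 1 lay above wild-type TAC 2 in 6 of the 11 and transgenic TAC 2 above transgenic TAC 1 in 9. For 5 of them, Sln, Myl7, Myl4, Mybphl and Dkk3, those were the 2 highest arrays, whereas Nppa was highest on wild-type TAC 2. The summed linear intensity of the markers other than Nppa was 1572 and 2131 on the sham arrays (wild type first), 10188 and 2560 on the wild-type TAC arrays and 2074 and 4786 on the transgenic TAC arrays, a sum in which the brighter members weigh most. Sln, the atrial calcium pump inhibitor sarcolipin, named after its values were seen, stood at 5.95 and 6.64 on the sham arrays, at 10.50 and 7.35 on the wild-type TAC arrays and at 6.04 and 8.09 on the transgenic TAC arrays. On wild-type TAC 1 and transgenic TAC 2 the atrial light chain gene Myl7 stood at 9.09 and 7.15, its relative Myl4, also named after its values were seen, at 12.48 and 10.80, and the myosin-binding protein gene Mybphl at 9.26 and 7.29. On transgenic TAC 1 Sln, Myl7, Myl4 and Mybphl were all within the range of the sham arrays, at 6.04, 5.50, 9.03 and 5.75, while Col1a1 there stood at 9.17 and Acta1 at 13.95. The part of these atrial levels in the matrix differences was not tested.

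**Figure D3:**
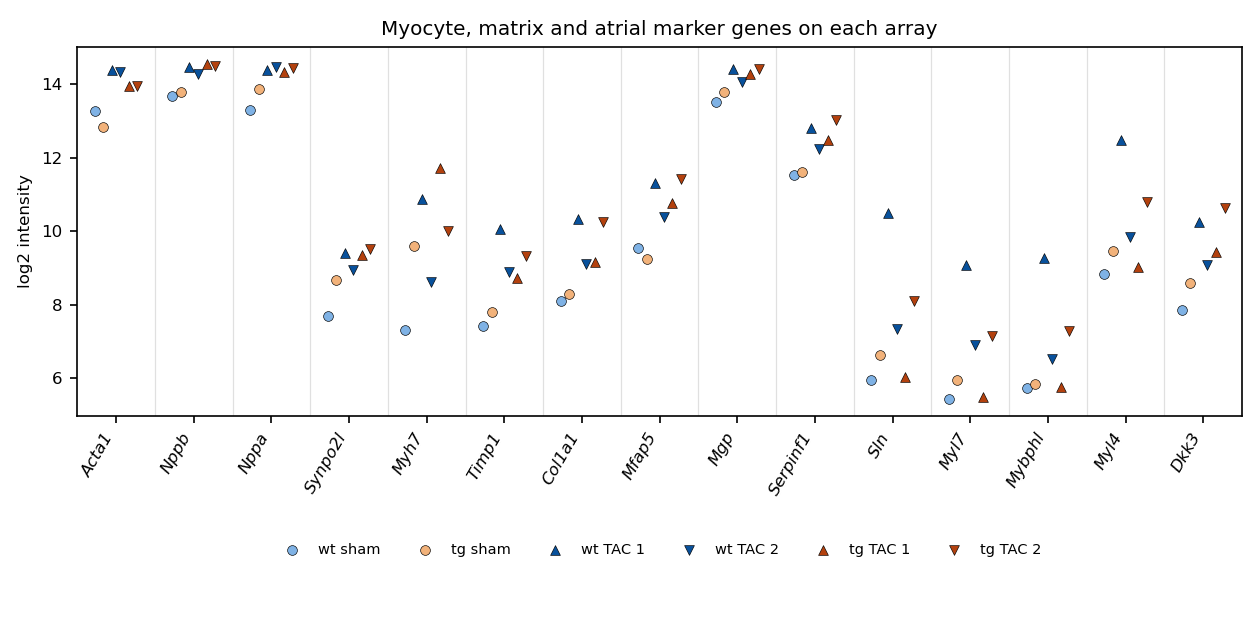
The log2 intensity of 15 myocyte, matrix and atrial marker genes is plotted for each array, with circles for sham and triangles for TAC, blue for wild type and orange for transgenic. Sln reaches 10.50 on wild-type TAC 1 and is next highest on transgenic TAC 2 at 8.09, the same 2 arrays that lead for Col1a1 and Mfap5, whereas Acta1 lies near the top of the scale on the TAC arrays.

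Markers of fibroblasts were higher with the matrix genes they overlap: 13 of 15 tested markers had positive differences and 9 lay above both sham arrays on all 4 TAC arrays, with a median of log2 0.31 (0.22 without wild-type TAC 1, 0.53 without wild-type sham). Their summed intensity was 28484 to 29644 on the sham arrays and 33021 to 47615 on the TAC arrays. Endothelial markers had positive differences in 13 of 13 tested, none free of overlap. Their median was 0.18 (0.07 without transgenic TAC 2, 0.31 without transgenic TAC 1). Pecam1 gave 0.34 ± 0.15 by its tested probe and 0.07 and 0.10 by dimmer ones. The summed intensity of the endothelial markers was 30648 to 33148 on the sham arrays and 27719 to 39705 on the TAC arrays, lowest on transgenic TAC 1.

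Macrophage markers had positive differences in 14 of 16 tested, a median of log2 0.14, and summed intensities of 6037 to 7943 on sham and 8017 to 9358 on TAC arrays. Laptm5 (0.45 ± 0.17) and Aif1 (0.36 ± 0.15), lysosomal and cytoskeletal proteins of macrophages, were the 2 without overlap (12.5% of those tested, background 8.38%). Smooth muscle and pericyte markers gave a median of 0.08 (-0.02 to 0.25 with 1 array left out), cardiomyocyte markers 0.02 and erythroid markers -0.05. Lymphocyte (6 tested), neutrophil and mast cell (4), mesothelial (3) and Schwann (4) markers gave medians of 0.12, 0.07, 0.55 and -0.17, and each of these changed sign when 1 array was left out. The 4 tested adipocyte markers, Plin4, Scd1, Adipoq and Lep, had a median of -0.11, which was -0.70 in wild type with none of 4 higher and 0.53 in transgenic hearts with 4 of 4 higher. Without the transgenic or the wild-type sham array it took the same values.

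Tubulin and cytoskeleton genes had positive differences in 19 of 24 tested members, with 7 above both sham arrays on all 4 TAC arrays and a median of log2 0.31. The beta-tubulin genes Tubb2b (0.80 ± 0.22) and Tubb5 (0.37 ± 0.12) and the actin-binding transgelin gene Tagln2 (0.65 ± 0.20) had no overlap, and the filamin of muscle, Flnc (0.43 ± 0.14), overlapped on transgenic TAC 1. Genes of the adult sarcomere did not lean to either side: 10 of 19 were positive and 9 negative, the range was -0.50 to 0.23, and none lay above both sham arrays on all TAC arrays. The 2 that lay below (10.5% of those tested, near the background of 8.16%) were the formin gene Fhod3 (-0.50 ± 0.17), which organises sarcomeric actin, and cardiac troponin I, Tnni3 (-0.28 ± 0.12).

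Among genes lower after TAC, Lypd2, of the Ly6 family of small surface proteins, had the smallest p. It stood at 6.94 and 6.53 on the sham arrays (wild type first), at 6.02 and 6.13 on the wild-type TAC arrays and at 5.85 and 6.01 on the transgenic TAC arrays. The TAC arrays were thus near the array median, and the difference was -0.73 ± 0.11 (limma adjusted p = 0.225). Gpr22, an orphan G protein-coupled receptor expressed in heart, stood at 10.31 and 10.42 on the sham arrays, at 9.02 and 9.80 on the wild-type TAC arrays and at 9.13 and 8.83 on the transgenic TAC arrays. Its sham arrays were close and all TAC arrays were lower (-1.17 ± 0.23, 2.25-fold, limma adjusted p = 0.237).

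Tbc1d10c, which encodes the calcineurin inhibitor carabin, stood at 10.10 and 9.47 on the sham arrays and at 8.26 to 8.82 on the TAC arrays (-1.28 ± 0.22). That value came from the brightest of 4 probes, and the 3 dimmer ones, with means of 5.47 to 6.37, gave differences between -0.01 and 0.00. Kcnv2, a modifying subunit of voltage-gated potassium channels, stood at 9.30 and 8.30 on the sham arrays, at 7.93 and 8.19 on the wild-type TAC arrays and at 7.86 and 6.70 on the transgenic TAC arrays (-1.13 ± 0.28). Transgenic sham lay 0.11 above the highest TAC array on the log2 scale.

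Several of the other named genes belong to metabolism. Phkg1 (-0.87 ± 0.20) encodes the catalytic subunit of phosphorylase kinase, Gnmt (-0.95 ± 0.22) glycine N-methyltransferase, Fah (-0.78 ± 0.20) the last enzyme of tyrosine breakdown, and Gcdh (-0.70 ± 0.16) glutaryl-CoA dehydrogenase of lysine breakdown. The limma adjusted p of these 4 lay between 0.274 and 0.325, and dimmer probes of Gcdh, near background with means of 5.48 and 5.50, gave 0.01 and 0.11. The ATP synthase subunit gene Atp5a1 gave -0.76 ± 0.20 by its tested probe and -0.07 by a dimmer one.

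The rest were the phospholipase gene Pla2g5 (-0.53 ± 0.11), the Ras-like GTPase gene Rasd2 (-0.71 ± 0.15), the plexin gene Plxnb3 (-0.43 ± 0.09), the periplakin gene Ppl (-0.73 ± 0.17), the ubiquitin ligase gene Herc3 (-0.40 ± 0.10), Armh4 (-0.66 ± 0.15), Tmem35a (-0.44 ± 0.10), Mov10l1 (-0.76 ± 0.25) and Sun3 (-0.75 ± 0.18). Genes best known from other organs were among them too, thyroglobulin (Tg, -0.67 ± 0.15) and a pancreatic amylase (Amy2a5, -0.78 ± 0.18), the latter from a family of near-identical copies. The naming rule required all 4 TAC arrays of these genes to lie below both sham arrays, so their lack of overlap is no result.

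Genes of fuel oxidation had mostly negative differences in 3 lists, with no member past the test. For fatty acid uptake and oxidation, 30 of 33 tested genes had a negative difference, 10 lay below both sham arrays on all 4 TAC arrays (background 8.16%), none lay above, and the median was log2 -0.36 (-0.30 in wild type, -0.34 in transgenic hearts; -0.24 without transgenic TAC 2). Acot1, an acyl-CoA thioesterase driven by PPAR-alpha, stood at 10.30 and 9.29 on the sham arrays (wild type first), at 9.20 and 9.57 on the wild-type TAC arrays and at 8.91 and 8.35 on the transgenic TAC arrays. Each TAC array was below the sham array of its genotype, but the groups overlapped (-0.79 ± 0.20, limma adjusted p = 0.313). Acot1 has near-identical neighbours in the genome, so its probe may also read those.

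Malonyl-CoA decarboxylase, Mlycd, which frees fatty acid import into mitochondria, gave -0.63 ± 0.17 and the enoyl-CoA isomerase gene Eci1 -0.56 ± 0.18, both without overlap. Hadhb, the beta subunit of the trifunctional protein, gave -0.53 ± 0.16 with overlap. The lowest value of the list, -1.01 ± 0.64, was that of the thiolase gene Acaa2, named after its values were seen. It stood at 11.45 and 11.19 on the sham arrays, at 10.65 and 10.50 on the wild-type TAC arrays and at 11.59 and 8.48 on the transgenic TAC arrays. Transgenic TAC 1 was above both sham arrays and the other 3 TAC arrays were below them. Its 3 other probes gave -1.09 to -0.90, the dimmest of them with all 4 TAC arrays below both sham arrays.

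Genes of the tricarboxylic acid cycle and pyruvate oxidation had a negative difference in 20 of 21 tested members, with 10 below both sham arrays on all 4 TAC arrays and a median of log2 -0.29. The median was -0.51 without the wild-type sham array and -0.16 without the transgenic sham array, the same as the values within transgenic and within wild-type hearts. Idh2, the mitochondrial isocitrate dehydrogenase, stood at 12.25 and 12.72 on the sham arrays and at 11.74 to 12.15 on the TAC arrays (-0.48 ± 0.14, limma adjusted p = 0.381). Mdh2 (-0.35 ± 0.12) and the succinate dehydrogenase subunit Sdhb (-0.37 ± 0.13) had no overlap, and Sdhd (-0.60 ± 0.21) overlapped.

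Ketone and branched-chain amino acid oxidation had the lowest median of all pathway lists, log2 -0.42, with 17 of 19 tested members negative and 8 below both sham arrays on all 4 TAC arrays. Ivd, the isovaleryl-CoA dehydrogenase of leucine breakdown, stood at 11.99 and 11.81 on the sham arrays, at 11.33 and 11.51 on the wild-type TAC arrays and at 11.48 and 11.14 on the transgenic TAC arrays. All 4 TAC arrays were lower, and the difference was -0.54 ± 0.14 (limma adjusted p = 0.319). Aldh6a1 of valine breakdown (-0.65 ± 0.18), the branched-chain ketoacid dehydrogenase subunit Dbt (-0.47 ± 0.14) and the mitochondrial aminotransferase Bcat2 (-0.44 ± 0.14) had no overlap either.

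The oxidative phosphorylation list was wide and shallow: 57 of 66 tested genes were negative, 16 lay below and 1 above both sham arrays on all 4 TAC arrays, and the median was log2 -0.10. The complex I subunit gene Ndufb4 (-0.68 ± 0.18), Cox7b of cytochrome oxidase (-0.54 ± 0.20) and Atp5h of the ATP synthase (-0.32 ± 0.10) were among those without overlap. Glycolysis and glycogen genes had 17 of 25 negative, a median of -0.09 (-0.03 without transgenic TAC 2) and 4 below both sham arrays. Muscle phosphofructokinase Pfkm (-0.25 ± 0.09), beta-enolase Eno3 (-0.33 ± 0.12) and muscle glycogen phosphorylase Pygm (-0.31 ± 0.13) had no overlap, Pygb (-0.35 ± 0.16) did, and the platelet-type phosphofructokinase Pfkp, named after its values were seen, was at 0.70 ± 0.38.

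The order of the TAC arrays turned over between matrix and oxidation in transgenic hearts, and in wild type mainly for 2 oxidation lists. Wild-type TAC 1 exceeded wild-type TAC 2 in 7 of 33 fatty acid genes and 2 of 19 ketone and branched-chain amino acid genes, against 45.1% of all genes tested. In the tricarboxylic acid and oxidative phosphorylation lists it did so in 8 of 21 and 26 of 66, nearer that share. Transgenic TAC 2 exceeded transgenic TAC 1 in 10, 5, 4 and 20 members of these lists, in the same order, against 58.7% of all genes. The centred median of the ketone and branched-chain list was 0.20 and 0.28 on the sham arrays (wild type first), -0.21 and -0.04 on the wild-type TAC arrays and 0.05 and -0.23 on the transgenic TAC arrays. Every TAC array was below both sham arrays, and the 2 TAC arrays highest in collagen were lowest here.

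**Figure D4:**
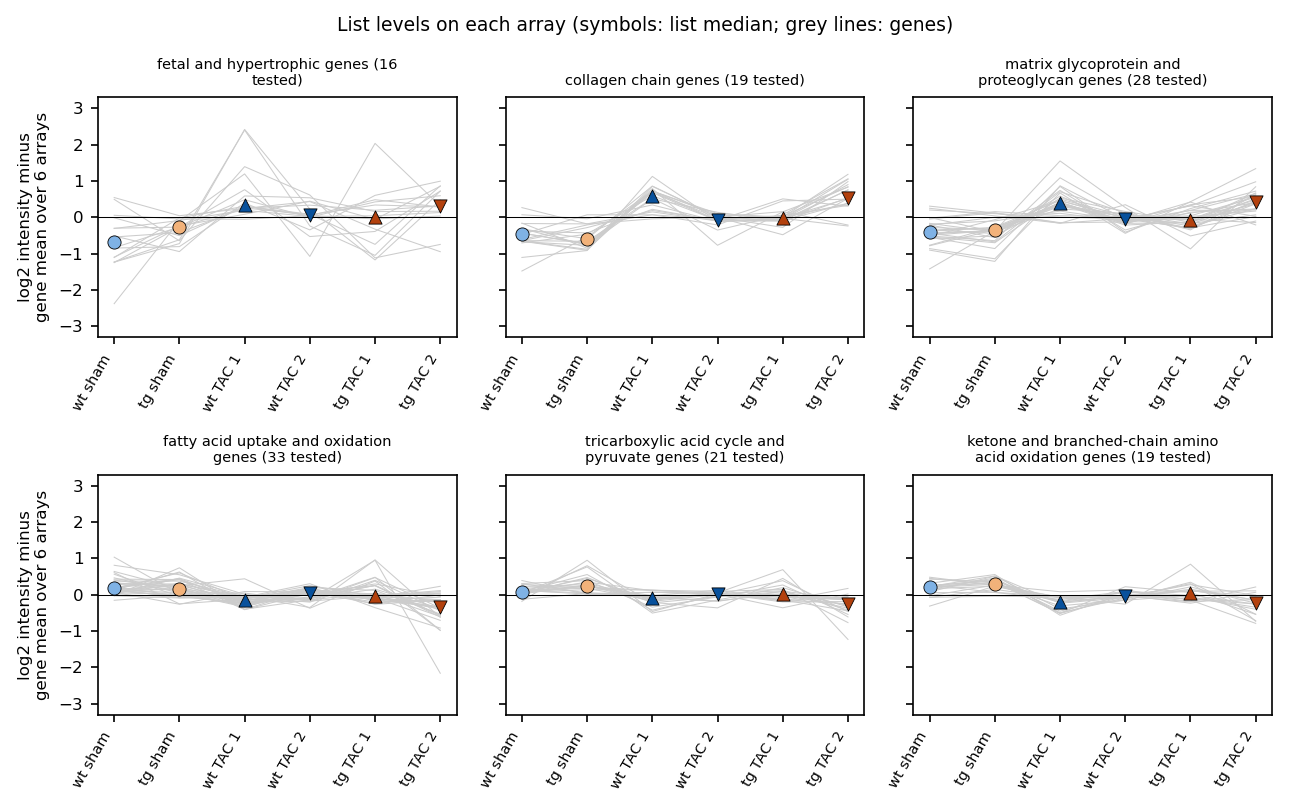
For 6 lists, each gene's log2 intensity minus its mean over the 6 arrays is drawn as a grey line across the arrays, and symbols give the list median on each array. The collagen and glycoprotein medians are highest on wild-type TAC 1 and transgenic TAC 2, where the 3 oxidation lists are lowest; lines join values of 1 gene and imply no order of arrays.

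Calcium cycling genes were split, with 7 of 22 tested members positive, 15 negative and a median of log2 -0.09 (-0.04 without wild-type sham). On all 4 TAC arrays 9.09% lay above and 9.09% below both sham arrays, near the 8.38% and 8.16% of all genes. The calcium release channel gene Ryr2 stood at 12.35 and 12.24 on the sham arrays and at 11.68 to 12.11 on the TAC arrays (-0.42 ± 0.11, limma adjusted p = 0.341), with no overlap. Atp2a2, the calcium pump of the sarcoplasmic reticulum, stood at 14.17 and 14.02 on the sham arrays and at 14.19 to 14.44 on the TAC arrays (0.24 ± 0.10). Other Atp2a2 probes with means of 13.89 and 10.96 gave -0.01 and -0.06, and one near background (mean 5.48) gave 0.16. The inhibitor of this pump, phospholamban (Pln), gave -0.46 ± 0.14 with overlap, and the sodium-calcium exchanger gene Slc8a1 -0.22 ± 0.11 without it.

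Potassium, sodium and gap junction channel genes had negative differences in 18 of 21 tested members, a median of log2 -0.19, and 5 members below both sham arrays on all 4 TAC arrays. Besides Kcnv2 these included Kcnh2 of the rapid delayed rectifier (-0.61 ± 0.16). Kcnd2, a subunit of the transient outward current, stood at 8.68 and 7.78 on the sham arrays, at 8.18 and 8.12 on the wild-type TAC arrays and at 7.13 and 6.69 on the transgenic TAC arrays. Each TAC array lay below the sham array of its genotype, but the groups overlapped across genotypes (-0.69 ± 0.18). Scn4b, a sodium channel beta subunit, was lower in wild type (-1.36 ± 0.32) than in transgenic hearts (-0.23 ± 0.32), and the test of that difference gave a limma adjusted p of 1.

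**Figure D5:**
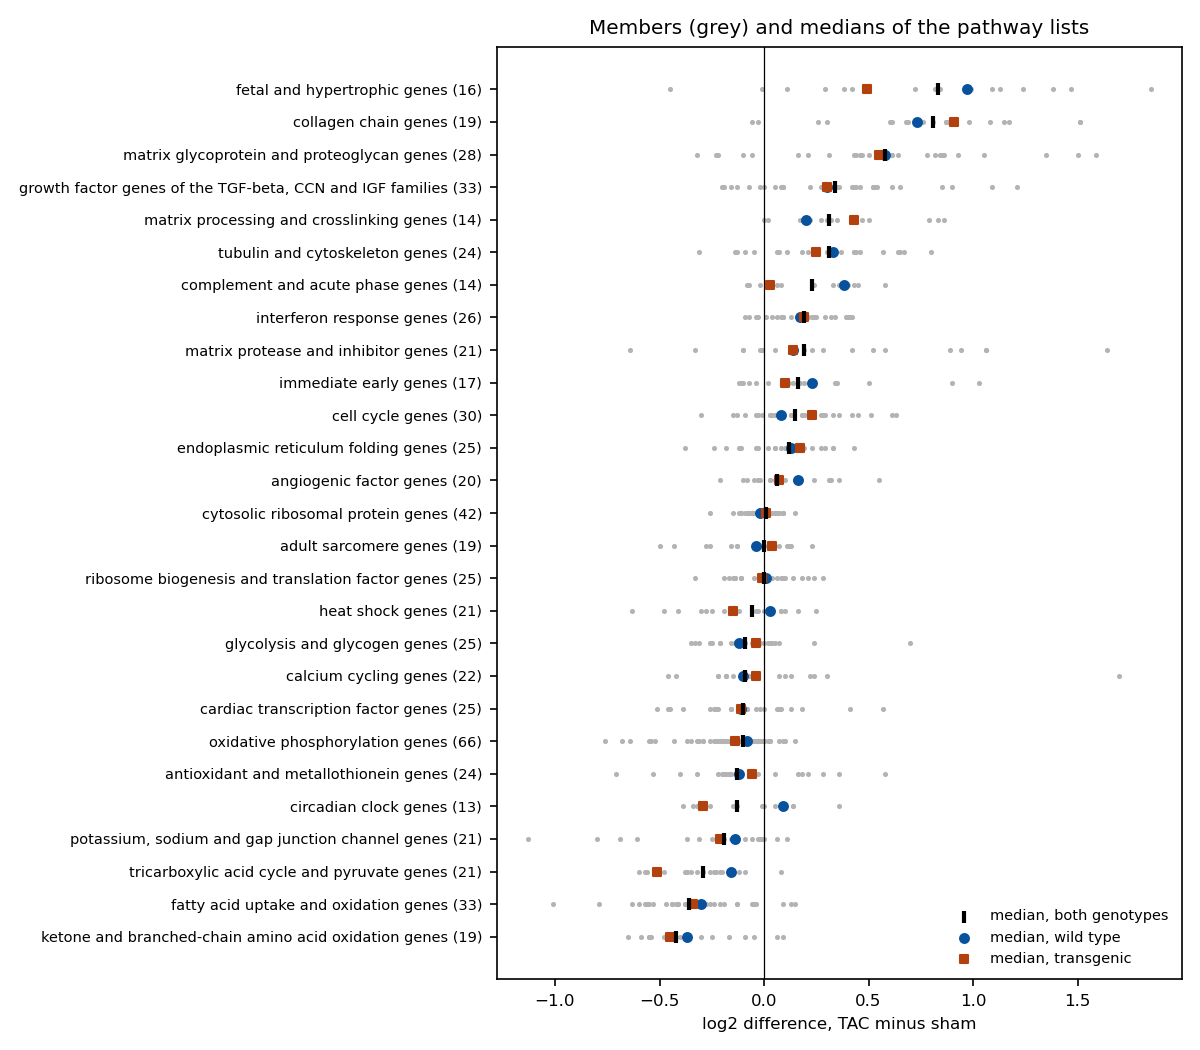
Grey points are the log2 differences, TAC minus sham, of the tested members of each pathway list, with the number tested in brackets; black bars are medians over both genotypes, blue circles medians in wild type and orange squares medians in transgenic hearts. Fetal and matrix lists lie to the right, with medians up to 0.83, and oxidation lists to the left, down to -0.42.

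Immediate early genes, which answer stimuli within the hour, had positive differences in 12 of 17 tested members and a median of log2 0.16, with 1 above both sham arrays on all TAC arrays (5.88%, background 8.38%). Leaving out wild-type TAC 1 brought the median to 0.00 and leaving out its partner to 0.30, and the list's centred median was lowest on wild-type TAC 2 (-0.35, against -0.14 and -0.05 on the sham arrays). The zinc finger genes Egr2 (0.90 ± 0.21), Egr3 (1.03 ± 0.28) and Egr1 (0.50 ± 0.18) and Klf6 (0.35 ± 0.15) were each above the sham array of their genotype on all 4 TAC arrays but overlapped across genotypes. Wild-type TAC 1 lay above wild-type TAC 2 in 17 of 17 members. Egr2, for example, stood at 5.84 and 6.73 on the sham arrays, at 7.16 and 6.38 on the wild-type TAC arrays and at 7.73 and 7.44 on the transgenic TAC arrays.

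Folding genes of the endoplasmic reticulum had 18 of 25 positive and a median of log2 0.12. The translocon genes Ssr1 (0.33 ± 0.14) and Ssr2 (0.33 ± 0.15) and the disulphide isomerase gene Pdia4 (0.43 ± 0.20) were above both sham arrays, whereas Herpud1, of degradation from the reticulum, was below them (-0.38 ± 0.12). Heat shock genes had a median of -0.06 (0.03 in wild type, -0.15 in transgenic hearts), and Hspb1, the small heat shock protein of muscle, gave 0.25 ± 0.12. For 3 others the transgenic sham array was the highest: Hspa1a stood at 9.36 there against 7.20 to 7.96 elsewhere, Hspd1 at 11.53 against 10.73 to 10.99, and Hspe1 at 9.53 against 8.18 to 8.72.

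Antioxidant and metallothionein genes had 17 of 24 negative and a median of log2 -0.13 (-0.05 without transgenic TAC 2). Nox4, an NADPH oxidase that makes hydrogen peroxide, stood at 6.23 and 6.49 on the sham arrays and at 6.74 to 7.20 on the TAC arrays (0.58 ± 0.16). The plasma glutathione peroxidase gene Gpx3 gave 0.36 ± 0.15, and Mt3 (-0.53 ± 0.11) and the glutathione transferase gene Gsta3 (-0.71 ± 0.29) overlapped. Cytosolic ribosomal protein genes had a median of 0.01 over 42 tested members, none with an unadjusted p under 0.05 in limma. Circadian clock genes had a median of -0.13, with 0.09 in wild type and -0.29 in transgenic hearts, and none free of overlap.

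Cell cycle genes had positive differences in 23 of 30 tested members and a median of log2 0.15, and transgenic TAC 2 lay above transgenic TAC 1 in 26 of 30. The median was 0.00 without transgenic TAC 2, the array with the highest centred list median (0.42, against -0.19 to -0.01 on the other 5). The replication genes Mcm6 (0.61 ± 0.21) and Tyms (0.51 ± 0.19) and the cyclin gene Ccnd2 (0.33 ± 0.16) had no overlap, and the cell cycle inhibitor Cdkn1a (0.63 ± 0.31) did. Interferon response genes had 22 of 26 positive, a median of 0.19 (0.10 without wild-type TAC 2) and 3 above both sham arrays (11.5%, background 8.38%). Isg15 (0.39 ± 0.17) was among the 3, while the class I antigen presentation genes B2m (0.41 ± 0.12) and H2-D1 (0.42 ± 0.13) overlapped. Complement and acute phase genes had 11 of 14 positive and a median of 0.23, with no member free of overlap. In wild type 13 of 14 were positive with a median of 0.38, in transgenic hearts 7 with a median of 0.03, which was also the value without wild-type sham. Cp, ceruloplasmin, gave 0.36 ± 0.14, and the C1q chains C1qc and C1qb gave 0.40 ± 0.17 and 0.33 ± 0.15.

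Cardiac transcription factor genes had 18 of 25 negative and a median of log2 -0.10 (-0.16 without transgenic TAC 1). Nfatc4, a target of calcineurin, stood at 8.63 and 8.28 on the sham arrays and at 8.81 to 9.24 on the TAC arrays (0.57 ± 0.19, limma adjusted p = 0.422), without overlap. Hand2, of the embryonic right heart, was lower on all 4 TAC arrays (-0.51 ± 0.17). The GATA4 cofactor Zfpm2 (-0.46 ± 0.15) and Hopx (-0.45 ± 0.16) overlapped across genotypes, although every TAC array lay below the sham array of its genotype. Angiogenic factor genes had a median of 0.06 (0.04 to 0.16 with 1 array left out) and ribosome biogenesis genes one that rounded to 0.00.

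No gene passed the test of a difference between the TAC responses of the genotypes (limma; 183 genes at an unadjusted p under 0.05, and a smallest adjusted p of 1). The difference within a genotype rests on its 1 sham array. Xist was low on transgenic sham (log2 5.41) and high on transgenic TAC 1 and TAC 2 (10.36 and 11.03). In transgenic hearts the contrast of surgery was thus also one of Xist level. Over all genes tested, 1560 (14.0%) moved one way on both wild-type TAC arrays and the other way on both transgenic TAC arrays, each against its own sham array. Among the named genes some differences were near each other in wild type and transgenic hearts, as for Acta1 (1.08 and 1.11), Nppb (0.71 and 0.73), Serpinf1 (0.99 and 1.14) and Col4a3 (0.70 and 0.69). Others were larger in transgenic hearts, as for Nkd2 (1.13 and 1.47), Mfap5 (1.31 and 1.87), Mfap4 (0.98 and 2.03) and Fgf6 (0.91 and 1.95). Still others were larger in wild type, as for Fhl1 (1.28 and 0.40).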

How the data were processed

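Total RNA of 6 mouse hearts or heart pools was hybridised to 6 Illumina bead arrays as biotinylated cRNA, per the labels. The authors deposited 1 intensity per probe and array, between 30.83 and 25873 on a linear scale. Their software and their background and normalization methods were not given in the sources used here. Sorted, the 6 deposited columns were within log2 0.0064 of their mean. They were used as deposited, except that 12 values under 32 were raised to it before taking log2. The platform annotation gave 1 gene symbol for 34885 of 45281 probes, several for 18 and none for 10378; 34807 symbols were updated by gene identifier and 11 by accession through RefSeq (GRCm38.p6), and 67 were kept. The brightest of a gene's probes represented it (9171 of 19053 genes had more than 1). The 11166 genes above the 50th percentile of named probes (intensity 58.7) were tested in limma 3.58.1 (R 4.3.3; lmFit, then eBayes with a trend on intensity) for surgery plus genotype, with Benjamini-Hochberg adjustment over all of them (threshold 0.05; 3 residual and 6.14 prior degrees of freedom). Errors are standard errors of that fit. Values within a genotype and the test of the difference between genotypes came from a fit of the 4 groups, in which each lone sham array is assumed to vary like the TAC arrays. The number of arrays limits the precision.

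On simulated data 13.8% of genes changed by log2 0.5, 57.7% of those changed by 1 and 88.7% of those changed by 2 were called. In it 6 unchanged genes were called too. The simulated noise was independent between genes and held no shared array effect, so these shares need not hold for the real arrays. Genes were named if past the test, if among the 15 smallest p or 10 largest differences per direction without overlap of TAC and sham arrays (predicted genes passed over), or if among the 4 smallest p of a list; 17 genes were always considered, and others are marked as named after their values were seen. Where a gene was picked by smallest p or largest difference per direction, its lack of overlap was required and is no result. The members, the 39 lists and the tests were chosen with earlier results of these data known. Lists share genes. The alternatives left out each array, took the median over probes, used no filter or the 75th percentile, subtracted a background, dropped the trend or the genotype, added Xist as a covariate, left out both low-Xist arrays, kept 1 genotype, or quantile normalized again.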

Additional observations from a re-analysis of the deposited data

Results flagged for a closer look

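Of 194 tested genes that met the naming rule or are named in the text, 8 moved one way on both wild-type TAC arrays and the other way on both transgenic TAC arrays, each against the 1 sham array of its genotype. Over all genes tested the share was 14.0%. Genes named for having no overlap of TAC and sham arrays cannot move in opposite ways, so these shares cannot be compared. The difference of the responses was tested for each as an interaction in limma, and the adjusted p was 1 for all 8. The adipocyte hormone gene Adipoq had a response 1.88 higher in transgenic than in wild-type hearts (log2 -1.24 in wild type, 0.64 in transgenic hearts), with sham levels of 8.09 and 6.69. Scd1, a fatty acid desaturase gene, had one 1.47 higher (-0.84 and 0.63), with sham levels of 10.09 and 8.93. For the inducible heat shock gene Hspa1a the transgenic minus wild-type response was -1.6 (0.17 and -1.43), with 9.36 on the transgenic sham array. For the acute phase gene Serpina3n it was -1.33 (1.10 and -0.23), and the wild-type TAC arrays stood at 10.96 and 10.91 against 9.84 on wild-type sham. For Myh6 it was 0.37 (-0.05 and 0.31). The adipocyte hormone gene Lep had a response 1.01 higher in transgenic than in wild-type hearts (-0.57 and 0.44) and the lymphocyte gene Nkg7 one 0.80 higher (-0.28 and 0.51). For the Schwann cell factor gene Sox10 the transgenic minus wild-type response was -0.60 (0.16 and -0.44). These 3 lay between log2 5.55 and 6.73 on all arrays, near the filter.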

How the results depend on the processing

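Each result was computed again under the other settings, and the cause of a change was not tested. The number of genes past the test was 1 over all arrays and 0 to 37 with 1 array left out. It was 2 with no filter and with the 75th percentile filter (Acta1 and Nppb), and 0 without the intensity trend, without the genotype covariate, with the Xist covariate, without both low-Xist arrays, in wild-type arrays only and in transgenic arrays only. The number with a difference between the genotypes' responses was 0, was 0 to 1 with 1 array left out, and was 5 with the Xist covariate. The fetal median (log2 0.83) was 0.49 in transgenic arrays only, 1.09 without both low-Xist arrays and 0.49 to 0.97 with 1 array left out. Without both low-Xist arrays the transgenic mice have no sham array left. Differences under that setting are therefore wild-type TAC 1 minus wild-type sham, 1 array against 1. The tricarboxylic acid median (-0.29) was -0.51 in transgenic arrays only and -0.51 to -0.16 with 1 array left out. The channel median (-0.19) was -0.25 with the 75th percentile filter, -0.14 by the median over probes and -0.22 to -0.13 with 1 array left out. Of 164 comparisons of these main results with another setting, 140 stayed within the spread or the factor allowed. Some of these could not differ by design, since dropping the trend or the genotype covariate leaves every list median unchanged. Leaving out the sham array of 1 genotype gave the list medians of the other genotype alone. Most of the remaining comparisons concerned the number of genes past the test.

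The median over probes also takes in probes near background. All untested probes of Gcdh, Igfbp7, Lrp8, Slc8a1, Ssr1 and Tyms had means of 5.25 to 6.0. By that median the sign turned, among genes named in the text, for Atp2a2 (-0.04), Gcdh (0.08), Igfbp7 (-0.01), Lrp8 (-0.02), Myh6 (-0.22), Slc8a1 (0.01), Ssr1 (-0.04), Tyms (-0.03) and Tbc1d10c (0.00). In wild-type arrays only it turned for Hspa1a (0.17), Hspd1 (0.00), Myh6 (-0.05), Nkg7 (-0.28), Sox10 (0.16), Xist (-2.56), heat shock genes (0.03), circadian clock genes (0.09) and lymphocyte (-0.02), neutrophil and mast cell (-0.06) and Schwann and nerve (0.03) markers. In transgenic arrays only it turned for Adipoq (0.64), Lep (0.44), Scd1 (0.63), Serpina3n (-0.23) and adipocyte (0.53), mesothelial (-0.02), smooth muscle and pericyte (-0.02) and erythroid (0.01) markers. Leaving out both low-Xist arrays compares wild-type TAC 1 with wild-type sham alone. There the sign turned for Hspa1a (0.29), Myh6 (-0.09), Nkg7 (-0.39), Sox10 (0.27), heat shock genes (0.06), circadian clock genes (0.28) and lymphocyte (-0.07), neutrophil and mast cell (-0.31) and Schwann and nerve (0.06) markers. Lists with a median between -0.02 and 0.02 over all arrays are left out of these sentences. With 1 array left out, differences ranged from -1.24 to 0.64 for Adipoq, -1.43 to 0.17 for Hspa1a, -0.61 to 0.00 for Hspd1, -0.57 to 0.44 for Lep, -0.05 to 0.31 for Myh6, -0.28 to 0.51 for Nkg7, -0.84 to 0.63 for Scd1, -0.23 to 1.10 for Serpina3n, -0.44 to 0.16 for Sox10 and -2.56 to 5.29 for Xist. The same ranges were -0.15 to 0.03 for heat shock genes, -0.29 to 0.09 for circadian clock genes, and -0.02 to 0.24 for lymphocyte, -0.09 to 0.27 for neutrophil and mast cell, -0.02 to 0.68 for mesothelial, -0.70 to 0.53 for adipocyte, -0.29 to 0.03 for Schwann and nerve and -0.17 to 0.01 for erythroid markers. No paired analysis was possible because each sham group holds 1 array, so sham and TAC groups share fewer than 2 replicate numbers. Intensities near background limit what dim genes can show.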
